A study of Homo sapiens with 6 samples.

Results

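RAB GTPases were followed in CAOV2 ovarian cancer cells after silencing of TAZ, the Hippo pathway coactivator encoded by WWTR1. The members are the protein-coding genes whose symbol is RAB with a number from 1 to 43 and at most 1 letter, and 53 of the 17211 genes in the deposited table met that rule. Symbols of the same form that the table does not list (RAB6C, RAB6D, RAB7B, RAB9B, RAB19, RAB25, RAB33A, RAB40A and RAB41) were not analysed here. The pseudogene RAB1C, at a mean value of 9.34 in control and 9.78 in silenced cells, was left out.

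RAB proteins are small GTPases of the RAS superfamily that mark membranes and direct vesicles between them. Each is carried to its membrane with a prenyl anchor, switched on by a guanine nucleotide exchange factor (GEF), and then recruits effectors such as tethers and motor proteins. A GTPase-activating protein (GAP) switches it off, and a GDP dissociation inhibitor (GDI) takes it back to the cytosol. In epithelial and carcinoma cells they set the routes of secretion, receptor and integrin recycling, and delivery to lysosomes.

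The study compared 2 groups of 3 libraries. In the siNT group, CAOV2 cells received a non-targeting siRNA, and in the siTAZ group they received siRNA against TAZ. Both groups carried 100 pmol of siRNA with 6 µL of lipid reagent on 100000 seeded cells, for 2 days, and RNA was taken on day 3. The labels describe CAOV2 both as a cell line and as primary cancer cells, and they name 1 siRNA catalogue number against TAZ, so effects of its sequence on other transcripts cannot be told apart from those of TAZ loss. The titles speak of biological replicates, but nothing says that they came from cultures begun apart. The p-values therefore speak only for the spread of these 6 libraries, some of which may be technical.

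Unless a scale is named, a value is the deposited one (reads over a size factor), and a mean is given ± SD over 3 libraries. The libraries held 25478595 to 34488196 recovered reads. WWTR1 fell 16.1-fold, from 4278 ± 73.2 to 266 ± 21.0, a log2 difference of -4.0 by limma (adjusted p = 8.0e-17). Of 14 ovarian and epithelial markers, 11 were listed, and their summed value was 97032 to 105556 in siNT and 94241 to 102333 in siTAZ. Most of that sum came from the keratins KRT7, KRT8, KRT18 and KRT19, so it says little of ovarian identity. Single markers moved within it. KRT7 fell from a mean of 22847 to 8604 and KRT18 from 27495 to 22365. KRT8 rose from 35206 to 39346, KRT19 from 14965 to 23778, EPCAM from 501 to 1361 and CDH1 from 256 to 579. The ovarian markers WT1, SOX17 and ESR1 were not listed and PAX8 was low, at means of 28.8 and 18.2. Also low were MUC16 (11.9 in siNT and 7.98 in siTAZ), FOLR1 (5.9 and 16.2) and MSLN (2.63 and 7.64). None of the 5 endothelial markers was listed, and PTPRC, CD3E and MS4A1 were among the leukocyte markers that were not. The 4 leukocyte markers that were listed summed to 151 to 161 in siNT and 283 to 339 in siTAZ, and the 6 listed fibroblast markers summed to 5609 to 6399 and 6614 to 7502. The 3 listed mesothelial markers summed to 62 to 81 in siNT and 28.5 to 47.8 in siTAZ. The part of these shifts in the RAB values was not tested. In bulk RNA, fewer cells of a type and less RNA per cell cannot be told apart.

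Upstream regions of 4 members are shown because they belong to the most changed member with an entry in the RefSeq promoter table (RAB17) and to a subfamily that split in direction and has an entry for each of its 3 members (RAB5A, RAB5B and RAB5C). Each is the 250 bases before the RefSeq gene start in GRCh38.p14, read 5′ to 3′ on the gene's strand. The reads had been aligned to hg19, and these coordinates were used for the sequences only. Capitals mark a match, on either strand, to the TEAD motif GGAATG (in RAB17), to the E-box TCACGTGA read by MiT/TFE factors of lysosome genes (in RAB5A), or to the AP-1 motif TGANTCA (in RAB5B).
RAB17, chr2:237590735-237590984, minus strand: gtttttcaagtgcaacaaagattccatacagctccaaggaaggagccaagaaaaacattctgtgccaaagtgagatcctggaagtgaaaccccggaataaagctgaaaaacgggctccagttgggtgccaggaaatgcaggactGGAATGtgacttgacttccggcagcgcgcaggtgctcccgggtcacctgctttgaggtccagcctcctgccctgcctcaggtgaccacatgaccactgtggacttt
RAB5A, chr3:19946847-19947096, plus strand: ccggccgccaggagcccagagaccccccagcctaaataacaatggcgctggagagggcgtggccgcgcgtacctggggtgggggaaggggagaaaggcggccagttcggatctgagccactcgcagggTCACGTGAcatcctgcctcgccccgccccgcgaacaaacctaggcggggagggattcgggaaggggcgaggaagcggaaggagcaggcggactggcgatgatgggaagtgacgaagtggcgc
RAB5B, chr12:55973699-55973948, plus strand: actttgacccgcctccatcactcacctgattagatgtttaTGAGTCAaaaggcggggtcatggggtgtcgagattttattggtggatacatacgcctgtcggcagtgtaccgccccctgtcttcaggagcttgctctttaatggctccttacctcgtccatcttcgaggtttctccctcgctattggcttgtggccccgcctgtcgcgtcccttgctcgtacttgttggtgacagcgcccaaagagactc
RAB5C, chr17:42154990-42155239, minus strand: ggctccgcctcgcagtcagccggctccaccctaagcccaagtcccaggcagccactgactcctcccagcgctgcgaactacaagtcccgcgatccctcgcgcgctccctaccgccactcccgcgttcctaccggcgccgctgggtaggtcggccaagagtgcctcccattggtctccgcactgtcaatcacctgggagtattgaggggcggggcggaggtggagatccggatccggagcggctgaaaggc

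The promoter table held 42 of the 53 members. The TEAD motif lay in 5 of those 42 windows, against 9.36% of 10761 listed protein-coding genes with a window of the same length. The 5 were RAB17 and RAB28, which rose, RAB27A, which fell, and RAB10 and RAB11B, which did not pass. The AP-1 motif lay in 2 windows (RAB3B and RAB5B, both higher in siTAZ) against 3.95% of genes, and the E-box in 2 (RAB5A and RAB21, both lower) against 1.67%. Of all 42 members with a window, 13 rose, 14 fell and 15 did not pass, so 2 matches cannot tie a motif to a direction. These motifs share no letters in the windows shown. A match is a run of letters and not a binding site.

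In the control cells, the RAB transcripts with the highest levels per kilobase of exon were RAB1B, RAB7A and RAB34. RAB1B, which acts between endoplasmic reticulum and Golgi, stood at a mean of 3786 per kb, or 12.4% of the summed RAB level per kb. Genes on the opposite strand overlap 37.1% of RAB1B's exon bases, and how the counting treated strand is not known here. RAB7A, the RAB of late endosomes and lysosomes, stood at 3357 per kb, and RAB34, which acts in cilium formation and lysosome positioning, at 2347 per kb. At the other end were RAB3C, a neuronal secretory RAB, at 0.642 per kb, and RAB39B, a RAB best known from neurons, at 1.48 per kb. The order of the top 4, with RAB1A in place 4, was the same in siTAZ. The summed level of the 53 members was 30415, 30571 and 30711 per kb in siNT and 30638, 30130 and 30282 per kb in siTAZ, and these groups overlapped. Not divided by length, the members held 0.295% to 0.301% of all reads in siNT. In siTAZ they held 0.307% to 0.311%, slightly more and without overlap. Within that pool members changed places: RAB37 went from place 33 to place 17 by level per kb, and RAB17 from place 25 to 19.

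The comparison asks which RAB transcripts differ once TAZ is silenced. In limma's test over 17204 genes, 19 of the 53 members rose, 15 fell and 19 did not pass at an adjusted p of 0.05. Of all genes tested, 28.3% rose and 27.5% fell by the same rule, or 55.8% in either direction, so the 64.2% of members called was near the background. The members' median log2 fold change was 0.06, against 0.00 over all genes, and their median size was 0.25, against 0.31. All 53 members passed the filter on low values. Against a fold of at least 1.2 (limma's treat test), 12 members rose and 2 fell, or 22.6% and 3.77%, where all genes gave 14.5% and 11.2%. The libraries of the groups did not overlap for 36 members, 20 with every siTAZ library higher and 16 with every one lower, against 31.1% and 30.3% of all genes (61.4% together).

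**Figure D1:**
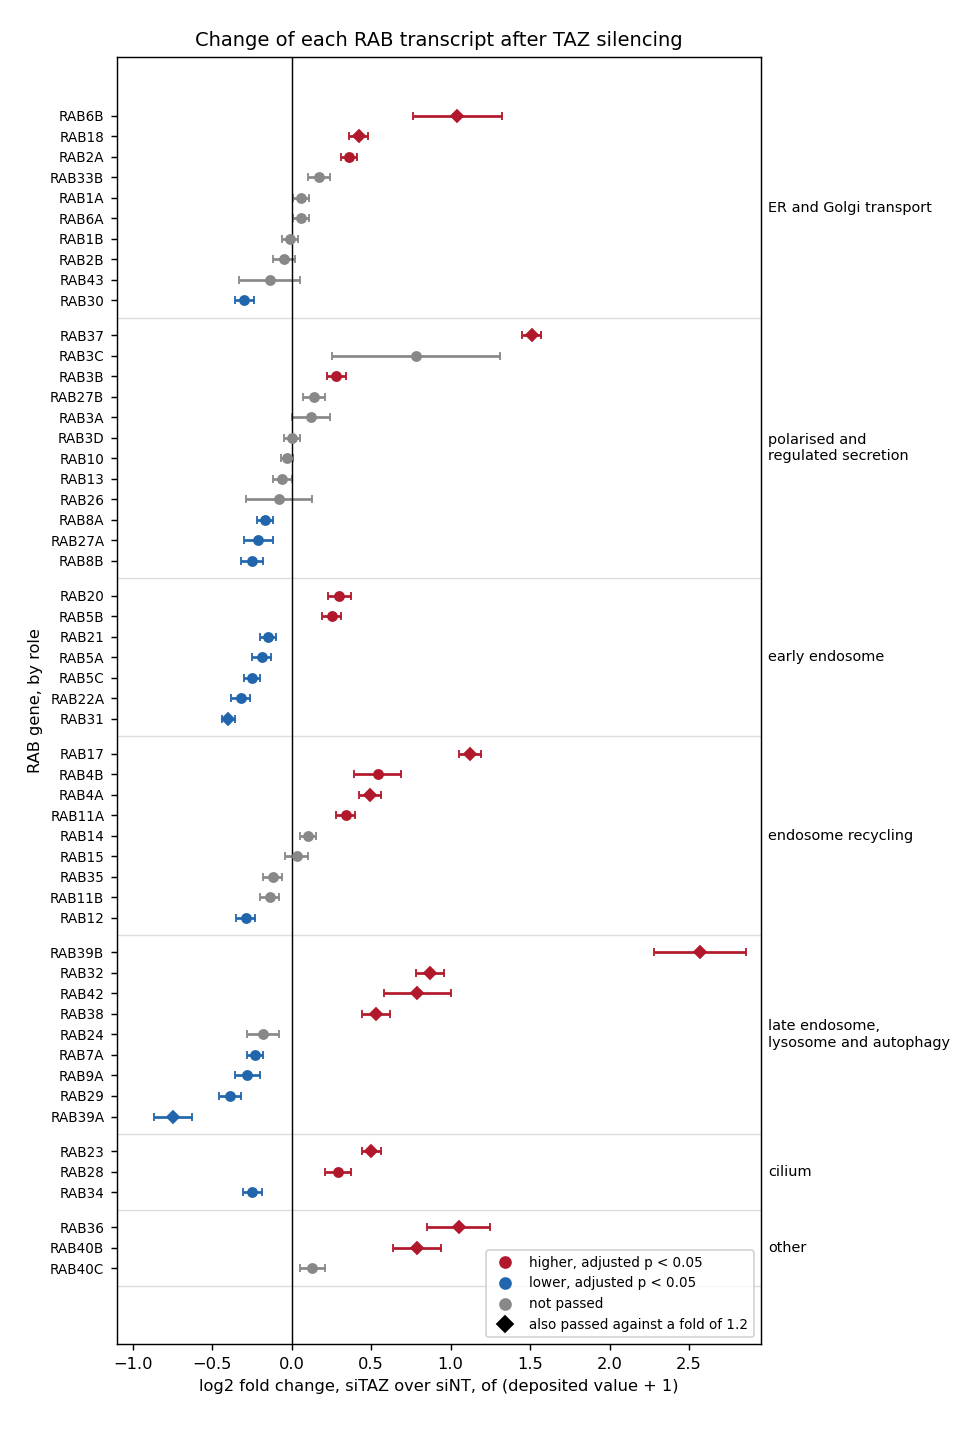
Log2 fold change (siTAZ over siNT, of the deposited value + 1; horizontal axis) of each of the 53 RAB genes, grouped by role, with bars of 1 standard error from limma. Colour gives the call at an adjusted p of 0.05 and diamonds the 14 members that also passed against a fold of 1.2; rises run up to 2.57 for RAB39B and the lowest value is -0.75 for RAB39A.

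Direction varied with abundance among the members. Of the 24 members with a mean value of at least 1000, 4 rose and 10 fell, that is 16.7% and 41.7%, where 30% and 38.4% of the 6343 genes of that abundance did (68.3% in either direction). Of the 29 less abundant members, 15 rose and 5 fell, that is 51.7% and 17.2%, where 27.4% and 21.1% of 10861 genes did (48.5% in either direction). The abundant members that rose were RAB2A, RAB11A, RAB18 and RAB37. The mean used for this split is over all 6 libraries, so it includes the change itself. RAB37 passed 1000 only in siTAZ, with means of 737 in siNT and 2097 in siTAZ. RAB8B, which fell, passed it only in siNT, at 1128 and 949. Log2 changes of at least 1 in size were found in 5 members, or 9.43%, against 11.5% of all genes. In all 5 (RAB39B, RAB37, RAB17, RAB36 and RAB6B) the change was a rise. The share of rises among all genes that changed that much is not given here. Of the 5, 3 (RAB39B, RAB36 and RAB6B) had a mean under 100, where 22.9% of all genes changed that much.

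**Figure D2:**
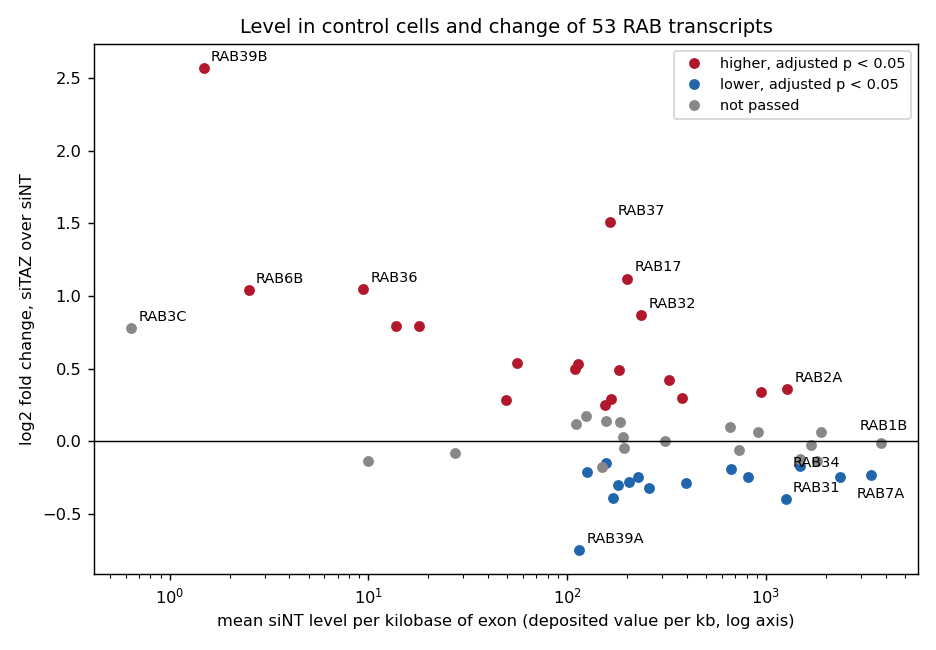
Mean siNT level per kilobase of exon (horizontal, log axis) against the log2 fold change, siTAZ over siNT (vertical), for the 53 RAB genes, coloured by call. The members that rose most lie at 235 per kb or less in siNT, while RAB7A and RAB34, at 3357 and 2347 per kb, changed by -0.23 and -0.25.

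The largest rise among secretory RABs was that of RAB37, at a mean of 737 in siNT. RAB37 (ENSG00000172794), a RAB of secretory granules, had values of 705, 782 and 723 in siNT and 2089, 2088 and 2114 in siTAZ. Every siTAZ library lay far above every siNT library, and the 3 siTAZ values differed by less than the siNT values did. The rise was 2.85-fold (log2 fold change 1.51, SE 0.06, limma adjusted p = 2.0e-12). RAB26, which is closely related to RAB37 and also serves granules, did not pass, with values of 56.5, 53.4 and 42.3 in siNT and 33.2, 59.7 and 53.7 in siTAZ. RAB3B, a RAB of regulated exocytosis, rose 1.22-fold, from 629 ± 23.7 to 766 ± 28.0, whereas its relative RAB3D stood at 1368 ± 5.57 and 1370 ± 16.0. RAB3A did not pass (170 ± 25.1 and 185 ± 22.4). RAB3C was too scarce to place, at 1.05, 6.41 and 9.67 in siNT and 8.31, 9.18 and 7.68 in siTAZ, from 15 and 27 reads in all.

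RAB8A and RAB8B, which carry cargo to the plasma membrane and the cilium, fell 1.13-fold and 1.19-fold, and their relatives RAB10 and RAB13 did not pass. RAB13's reads are uncertain, since 42.8% of its exon bases also belong to AL358472.6 in the GENCODE annotation. RAB8B had 1222, 1022 and 1141 in siNT and 882, 993 and 972 in siTAZ, with no overlap. RAB27A, which docks secretory granules and exosome-forming endosomes, had 527, 429 and 443 in siNT and 409, 381 and 417 in siTAZ. Its fall was the call nearest the threshold (log2 fold change -0.21, SE 0.09, limma adjusted p = 0.049), and without siNT replicate 1 it was -0.12 (limma adjusted p = 0.26, range over 16 alternatives 0.027 to 0.26). Leaving out siNT replicate 3, siTAZ replicate 2 or siTAZ replicate 3 also ended that call (0.054, 0.17 and 0.059). So did total count scaling (0.15), TMM scaling (0.057), a pseudocount of 10 (0.051), the replicate block (0.076), voom (0.054) and DESeq2 (0.07). RAB27B did not pass, at 1137 ± 83.2 and 1254 ± 88.2. Of the 12 secretory members, 2 rose, 3 fell and 7 did not pass, or 41.7% called against 55.8% of all genes.

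Among recycling RABs, which return receptors from endosomes to the surface, 4 of 9 rose, 1 fell and 4 did not pass, or 55.6% called against 55.8% of all genes. RAB17 (ENSG00000124839), an epithelial RAB of recycling endosomes and transcytosis, had 385, 410 and 382 in siNT and 916, 849 and 805 in siTAZ. All 3 siTAZ libraries were at or above 805 and all 3 siNT libraries at or below 410. That is a rise of 2.18-fold (log2 fold change 1.12, SE 0.07, limma adjusted p = 8.3e-10). RAB4A and RAB4B, of the fast recycling route, rose together. RAB4A went from 554 ± 25.4 to 778 ± 39.3, or 1.40-fold. RAB4B had 82.7, 106 and 68.9 in siNT and 131, 112 and 127 in siTAZ, a narrow gap (limma adjusted p = 0.0062). In the GENCODE annotation 73.3% of RAB4B's exon bases also belong to read-through transcripts with its neighbours, and 21.3% of RAB4A's to SPHAR, so their reads are uncertain.

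RAB11A, the main RAB of the slow recycling endosome, rose 1.27-fold, from 4646 ± 276 to 5900 ± 387. Its relative RAB11B had 3444, 4016 and 3979 in siNT and 3629, 3397 and 3325 in siTAZ. The groups overlapped, and RAB11B was the uncalled member nearest the threshold (log2 fold change -0.14, limma adjusted p = 0.053). It passed without siNT replicate 1 or siTAZ replicate 1 (0.0021 and 0.011), with a range of 0.0021 to 0.22 over 16 alternatives. It also just passed with a pseudocount of 10 (0.049) and with the filter of 1 CPM in 3 libraries (0.05 after rounding). RAB12, which steers transferrin receptor to degradation, fell, with 877, 819 and 851 in siNT and 670, 687 and 733 in siTAZ. RAB14, RAB15 and RAB35 did not pass.

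All 7 early endosome members passed, where 55.8% of all genes and 68.3% of those with a mean of at least 1000 did. They gave 2 rises and 5 falls, with changes of no more than 0.40 in size on the log2 scale. RAB31, which shuttles between the trans-Golgi network and endosomes, had 5074, 4992 and 5217 in siNT and 3824, 3795 and 3938 in siTAZ. The groups lay well apart, and the fall was 1.32-fold (log2 fold change -0.40, SE 0.04, limma adjusted p = 8.5e-07). RAB31 was 1 of the 2 falls past a fold of 1.2, a call lost without siNT replicate 3 or siTAZ replicate 2. RAB22A, its closest relative and a sorting RAB of early endosomes, had 2381, 2084 and 2283 in siNT and 1708, 1873 and 1831 in siTAZ, a 1.25-fold fall. RAB21, which handles integrins, fell 1.11-fold, from 2443 ± 22.1 to 2199 ± 94.2. That call was lost without siNT replicate 3 (limma adjusted p = 0.058), with total count scaling (0.10) and with the replicate block (0.074; range over 16 alternatives 0.013 to 0.10). RAB20 rose 1.23-fold, from 576 ± 12.6 to 708 ± 46.2.

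The RAB5 proteins drive early endosome fusion, and their 3 transcripts did not move as one. RAB5A had 1753, 1655 and 1656 in siNT and 1401, 1533 and 1496 in siTAZ. RAB5C had 1552, 1611 and 1496 in siNT and 1345, 1318 and 1258 in siTAZ. In the GENCODE annotation 28.9% of its exon bases also belong to AC099811.2 on the same strand, so its reads are uncertain. RAB5B had 803, 884 and 817 in siNT and 975, 1019 and 977 in siTAZ. So RAB5A and RAB5C fell, by 1.14-fold and 1.19-fold, while RAB5B rose 1.19-fold, each without overlap (limma adjusted p = 0.0065, 0.00096 and 0.0023). The early endosome members made up 11.9% to 12.2% of the summed RAB level per kb in siNT and 10.5% to 10.7% in siTAZ. Such a shift was not particular to them: the endoplasmic reticulum and Golgi members went from 28.1% to 28.7% up to 30.2% to 30.9%. Of all the roles, only the secretory share overlapped between groups, at 16.3% to 17.1% and 16.7% to 17%.

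Late endosome and lysosome RABs moved in both directions, with 4 of 9 higher, 4 lower and 1 not passing, or 88.9% called against 55.8% of all genes. RAB39B (ENSG00000155961) had 5.24, 4.28 and 6.04 in siNT and 37.4, 34.9 and 34.1 in siTAZ, from 14 and 114 reads in all. The groups were far apart, at a ratio of means of 6.84 (log2 fold change 2.57, SE 0.29, limma adjusted p = 8.3e-07). Its size on the log scale depended on the pseudocount, at 1.58 with a pseudocount of 10. RAB39A (ENSG00000179331), its close relative and a RAB of phagosomes and late endosomes, had 217, 212 and 201 in siNT and 106, 130 and 140 in siTAZ. That fall of 1.67-fold was the largest of any member (log2 fold change -0.75, SE 0.12, limma adjusted p = 3.7e-05). RAB42, grouped here because it is related to the RAB39 genes, had 30.4, 26.7 and 33.8 in siNT and 57.1, 39.5 and 65.7 in siTAZ. It passed as higher (limma adjusted p = 0.0042), though siTAZ replicate 2 lay close to the controls.

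RAB32 and RAB38 build lysosome-related organelles such as melanosomes, and RAB29 recruits the kinase LRRK2 to Golgi and lysosome membranes. RAB32 had 267, 314 and 278 in siNT and 577, 498 and 501 in siTAZ, a rise of 1.83-fold (limma adjusted p = 2.3e-07). RAB38 had 160, 171 and 164 in siNT and 228, 240 and 248 in siTAZ, a rise of 1.45-fold. RAB29 went the other way, with 593, 580 and 591 in siNT and 440, 441 and 462 in siTAZ, or 1.31-fold lower. None of these 3 had overlapping groups. RAB7A fell 1.17-fold, from 7529, 7295 and 7782 to 6430, 6266 and 6560. RAB9A, which returns mannose 6-phosphate receptors to the Golgi, had 440, 378 and 433 in siNT and 335, 342 and 353 in siTAZ. RAB24, a RAB linked to autophagy, did not pass.

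**Figure D3:**
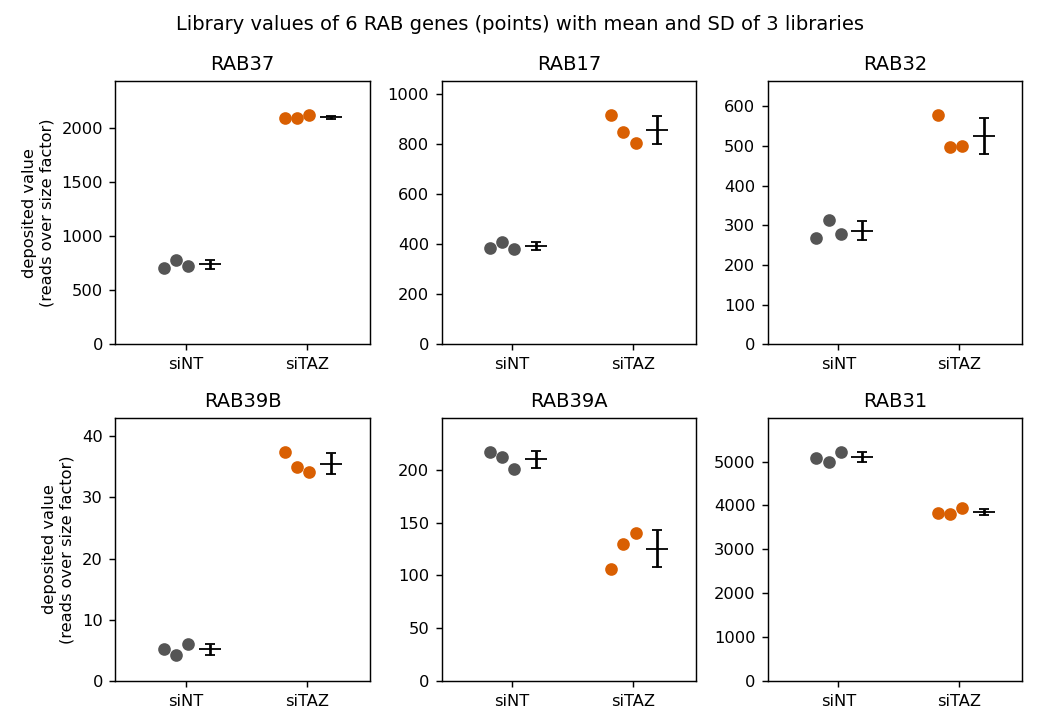
Deposited values (vertical, from 0, own scale per panel) of RAB37, RAB17, RAB32, RAB39B, RAB39A and RAB31 in each siNT and siTAZ library (points), with the mean and SD of 3 libraries beside them. In every panel the groups do not overlap, with the first 4 genes higher and RAB39A and RAB31 lower in siTAZ.

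Of the 10 RABs between endoplasmic reticulum and Golgi, 3 rose, 1 fell and 6 did not pass, or 40% called against 55.8% of all genes. RAB1A, RAB1B and RAB6A, the abundant RABs of this route, did not pass, at log2 fold changes of 0.06, -0.01 and 0.06. RAB1B had 7180, 7868 and 7745 in siNT and 7935, 7413 and 7328 in siTAZ, values that overlapped throughout. RAB2A rose 1.28-fold, from 4908 ± 192 to 6303 ± 219, while RAB2B did not pass, at 567 ± 33.9 and 546 ± 8.09. RAB18, found on endoplasmic reticulum and lipid droplets, rose 1.33-fold, from 1657 ± 110 to 2209 ± 124. RAB30, a Golgi RAB, fell, with 2078, 1945 and 1948 in siNT and 1475, 1662 and 1723 in siTAZ. RAB6B, the neuronal form of RAB6, was scarce and had 19.9, 12.8 and 9.67 in siNT and 30.1, 32.1 and 24.7 in siTAZ (limma adjusted p = 0.0049). RAB43 did not pass, and 84.5% of its exon bases also belong to the ISY1-RAB43 read-through gene.

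Of the 3 ciliary RABs, RAB23, a negative regulator of Hedgehog signalling, rose 1.41-fold, from 536 ± 20.4 to 757 ± 7.21. BAG2, on the opposite strand, overlaps 57.7% of RAB23's exon bases, and how the counting treated strand is not known here. The same limit holds for RAB8A and RAB3D, with 36% and 22.3% of their exon bases overlapped on the opposite strand. RAB28 rose 1.22-fold. RAB34 fell 1.19-fold, with 4586, 5046 and 4893 in siNT and 4395, 3853 and 3969 in siTAZ. RAB36, its closest relative, was scarce and had 44.0, 38.5 and 25.4 in siNT and 77.9, 63.3 and 80.2 in siTAZ, a rise of 2.05-fold (limma adjusted p = 0.00032). RAB40B, an unusual RAB that joins a ubiquitin ligase, had 61.8, 94.1 and 77.3 in siNT and 136, 128 and 136 in siTAZ, while RAB40C did not pass.

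The balance between relatives was compared within each library as the log2 ratio of 2 members. There were 35 pairs in 16 subfamilies, and the libraries of the groups did not overlap in 24 of them. For single genes, 61.4% of all tested did not overlap, and the share over other gene pairs was not computed. Each of the 24 pairs reached the smallest two-sided p that an exact permutation test of 3 against 3 libraries can give, 0.1. Adjusted by the Benjamini-Hochberg method over the 35 pairs it was 0.15, so this test can call no single pair at 3 libraries a group. In 4 subfamilies 1 member was called higher and another lower. The libraries of these members did not overlap, so a ratio of a risen to a fallen member could not overlap either. The log2 ratio of RAB39A to RAB39B went from 5.10 ± 0.25 in siNT to 1.78 ± 0.27 in siTAZ. The ratio of RAB32 to RAB29 changed sign, from -1.04 ± 0.14 to 0.23 ± 0.15. That sign is of values not divided by length: per kb, RAB32 was above RAB29 in both groups, at 235 and 169 in siNT and 432 and 129 in siTAZ. The ratio of RAB34 to RAB36 went from 7.07 ± 0.44 to 5.77 ± 0.15, and that of RAB5B to RAB5C from -0.90 ± 0.05 to -0.40 ± 0.06. RAB11A to RAB11B rose from 0.29 ± 0.21 to 0.77 ± 0.16. The pairs RAB1A and RAB1B, RAB4A and RAB4B, RAB8A and RAB8B, and RAB22A and RAB31 had overlapping ratios, with differences of 0.06, -0.05, 0.07 and 0.09.

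**Figure D4:**
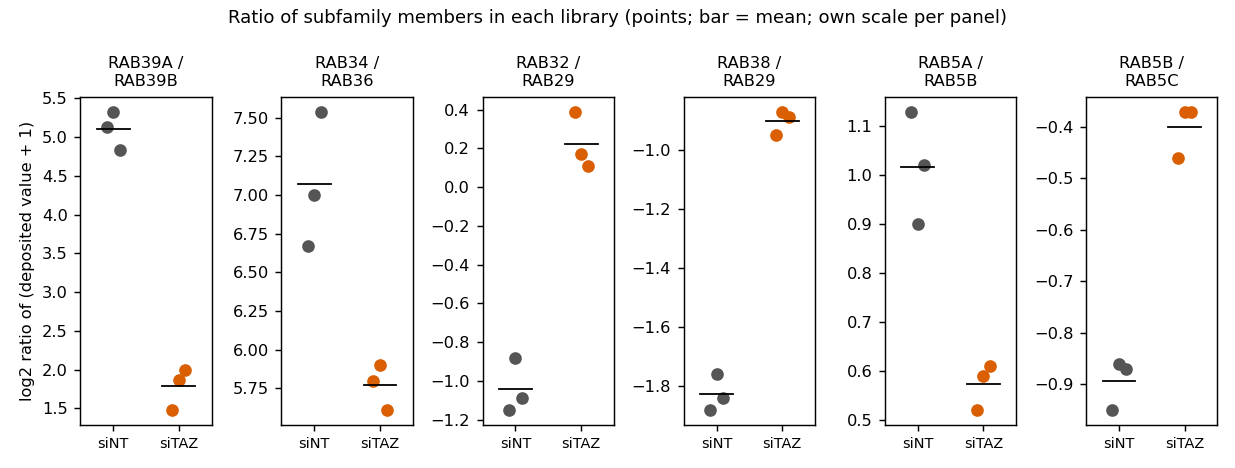
Log2 ratio of (deposited value + 1) of 2 related RAB genes in each library (points, with the mean as a bar; vertical axis on its own scale in each panel, not starting at 0). Each panel joins a member with every siTAZ library higher to one with every siTAZ library lower. The groups therefore could not overlap in these 6 panels, which show only the size of the shift. The RAB39A to RAB39B ratio moved by -3.31.

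The proteins that act on RABs were described from 4 lists. Of 171 genes written, 164 were tested, of which 61 rose and 37 fell (66 did not pass). Their median difference was 0.09 on the log2 scale. That is 59.8% called, against 55.8% of all genes. Scaled to total counts, the split was 73 higher and 26 lower. That scaling moved the log2 fold changes of all genes up by a median of 0.053. The split of all genes under it is not given here, so the partners' split cannot be set apart from that shift. In the list of prenylation, escort and GDI genes, 2 of 8 rose and 4 fell (75% called, against the 55.8% of all genes). GDI2, which extracts RABs from membranes, rose 1.11-fold, from 11807 ± 387 to 13156 ± 713. CHML, an escort protein that presents RABs for prenylation, fell 1.68-fold, from 2808 ± 259 to 1674 ± 182, while its relative CHM did not pass (945 ± 72 and 986 ± 86.2). RABGGTB, the catalytic subunit of the prenyl transferase, fell 1.22-fold.

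Of 51 GEF genes, 17 rose and 10 fell, or 33.3% and 19.6%, where 28.3% and 27.5% of all genes did. SH3BP5, a GEF of RAB11, rose 2.88-fold, from 228 ± 10.0 to 655 ± 18.9, RIN2, a GEF of RAB5, rose 1.87-fold, and DENND5B rose 1.59-fold. Of 37 GAP genes, 14 rose and 5 fell, or 37.8% and 13.5%. EVI5L had 150, 164 and 163 in siNT and 363, 385 and 372 in siTAZ, a rise of 2.35-fold, and TBC1D9 and TBC1D8 rose 2.08-fold and 1.6-fold. Of 68 effector genes, 28 rose and 18 fell, or 41.2% and 26.5%. FYCO1, which links RAB7 vesicles to kinesin, rose 2.33-fold, from 758 ± 24.2 to 1763 ± 30.2. RAB11FIP1, a RAB11 effector, rose 1.95-fold, from 979 ± 8.17 to 1909 ± 69.8. MLPH, melanophilin, which joins RAB27A to a myosin motor, fell 1.62-fold, from 7353 ± 291 to 4526 ± 178 (limma adjusted p = 2.4e-09).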

How the data were processed

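RNA of 6 CAOV2 samples was sequenced after a stranded mRNA kit, per the labels' protocols. FastQC, HISAT2, HTSeq, DESeq2 and hg19 were used, per the submitters' processing notes, and those sources state no version, annotation, strand setting or gene filter (not given in the sources used here). Each deposited value is a signal in which 1 size factor per library divides the reads. Dividing by the smallest step of each library gave whole reads for 100% of values, to within 0.001. Genes were named from an Ensembl identifier table (16662) or GENCODE release 29 (81), and 468 stayed unnamed. Level per kb divides by the exon bases of GENCODE's basic transcripts.

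Limma 3.58.1 (R 4.3.3) with an intensity trend was fitted, with group as the only term, to the log2 of each value plus 1. The 17204 genes averaging at least 1 were tested, and Benjamini-Hochberg adjustment ran over all of them. Fold changes on this scale understate changes of low genes. Limma's treat tested against a fold of 1.2. Because the values are not raw counts, edgeR 4.0.16, DESeq2 1.42.0 and limma voom on the recovered reads were alternatives; edgeR called 9630 genes and limma 9604. The tests were tested on simulated data. Few genes were changed there, up and down alike and none of them scarce, so widespread change and scarce genes were not covered. The other alternatives were pseudocounts of 0.5 and 10, no filter, a filter of 1 CPM in 3 libraries, total count and TMM scaling, a replicate block and leaving out each library. Data were handled in Python 3.11.15 (pandas 2.3.3, scipy 1.17.1, matplotlib 3.10.9).

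Members, roles, subfamilies and partner lists were chosen with earlier results of these data known. Members named with every library's value are the 10 largest rises and 10 largest falls among called members with a mean of at least 10, the 3 highest levels per kb, subfamilies with calls in both directions, members with a mean under 10 and those nearest the threshold. From each partner list up to 3 called genes with the smallest adjusted p were named, plus GDI2, CHM and CHML; some genes are not reported here. Other names illustrate a group.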

Additional observations from a re-analysis of the deposited data

How the results depend on the processing

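Over 16 alternatives, 32 of the 34 called members kept their call in every one that tested them, and none changed direction. The calls of RAB27A and RAB21 were lost in 1 or more, and 6 uncalled members passed in 1 or more. Past a fold of 1.2, 8 of the 14 calls held in every alternative, namely RAB17, RAB23, RAB32, RAB36, RAB37, RAB39A, RAB39B and RAB40B. With total count scaling or the replicate block, 1 member in place of 2 was lower past a fold of 1.2, because RAB31 was lost, and leaving out 1 library at a time gave 1 to 2. Members higher past that fold numbered 8 with DESeq2 and 14 with edgeR. All genes followed the same order: in either direction, 3504 of 17204 passed that fold with DESeq2 and 5348 with edgeR, against 4417 in the main limma fit. Same-numbered libraries did not deviate together (r of -0.532, -0.304 and -0.087 across genes), so the values do not pair them by number. The highest r between libraries of other numbers were 0.467 (siNT 2 with siTAZ 1), 0.415 (siNT 1 with siTAZ 3) and 0.35 (siNT 1 with siTAZ 2). Deviations from a mean of 3 libraries cancel within each group, so positive and negative r come together. These values therefore do not show separate pairs, and whether any libraries share a source was not tested. With the replicate block 19 members were higher and 13 lower, where 8701 of all genes were called in either direction, against 9604 without the block. TMM and total count scaling shifted the median of all genes by 0.006 and 0.053 on the log2 scale. Depth limits RAB3C, RAB39B and RAB6B most.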

Other observations

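Among effectors named after their RAB, a group singled out after its values were seen, all 5 listed RAB11 family interacting proteins passed as higher in limma's test, where 28.3% of all genes and 41.2% of the effector list did. RAB11FIP2 rose from 286 ± 5.92 to 454 ± 29, RAB11FIP3 from 1432 ± 77.3 to 1938 ± 108, RAB11FIP4 from 380 ± 46.9 to 545 ± 25.7 and RAB11FIP5 from 946 ± 65.4 to 1295 ± 95.7, beside RAB11FIP1 given above. RAB11A rose with them and RAB11B did not.

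Effectors of early and late endosomal RABs, also singled out afterwards, held falls past a fold of 1.2. Such falls were at the background: 8 of the 68 listed effectors had one, or 11.8%, against 11.2% of all genes. EEA1, the tether that RAB5 recruits, fell from 2268 ± 207 to 1470 ± 193, with 2475, 2061 and 2267 in siNT and 1249, 1551 and 1609 in siTAZ. RILP, which couples RAB7 to dynein, fell from 772 ± 66.3 to 490 ± 35.7. Against that direction, APPL1 and APPL2, RAB5 effectors of another endosome class, rose by 0.44 and 0.87 on the log2 scale, and FYCO1, the kinesin-side partner of RAB7, rose as given above.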
